A study of Mus musculus with 76 samples.

Results

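Cortical thymic epithelial cells (cTEC) sorted from the thymus of SOD1-G93A mice at day 120 were compared with the same cells of wild-type (WT) mice of that day. The comparison holds 6 of the 76 libraries of the series, 3 of each genotype, and they were chosen by the cell type, day and genotype in the sample titles. SOD1-G93A mice carry a mutant human SOD1 transgene and are a model of amyotrophic lateral sclerosis (ALS), a disease in which motor neurons die. The SOD1 libraries, of genotype Sod1Mut, are called SOD1 1 to 3, and the WT libraries WT 1 to 3. The strain field reads SOD1-G93A for both genotypes. The labels do not give the promoter of the transgene, the sex, the number of mice behind a library or whether the libraries came from separate mice, so each p-value measures only the spread between these samples, which may be technical. The series asks about the thymus in the SOD1 model, and it also profiled medullary thymic epithelial cells (mTEC), T cells, whole thymus, lymph node and cultures. Here cTEC of day 30 (5 libraries) and mTEC of day 120 (6 libraries) serve for comparison.

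cTEC form the outer meshwork of the thymus. The transcription factor Foxn1 drives their program. They draw T cell precursors in with the chemokines Ccl25 and Cxcl12, commit them to the T lineage through the Notch ligand Dll4 and support them with Il7 and Kitl. They then test the receptors of young thymocytes against self peptides, which they make with equipment found in few other cells. That equipment includes the thymoproteasome subunit Psmb11 and the proteases Prss16 and Ctsl (cathepsin L).

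The 6 libraries held 1269529 to 3083181 counts, and 5 of them had 13264 to 15679 genes with a count. The library SOD1 3 stood apart. It had 7627 genes detected among 1836483 counts, 57.2% of the genes tested were at 0 in it, and 7.60% of its counts fell on mitochondrial transcripts, against 2.50% to 4.45% in the other 5 libraries. On the log2(CPM + 1) scale it correlated with the other 5 at r = 0.498 to 0.521, while those 5 correlated among themselves at 0.714 to 0.797 (10 pairs, across genes, which are not independent). CPM are counts per 1000000 of a library's counts on the tested genes, scaled by the TMM method. Results are given with all 6 libraries and without SOD1 3. Immunoglobulin genes took 0.0132% of the counts in SOD1 1, 6.05% in SOD1 2 and 3.55% in SOD1 3, and 2.50% in WT 1, 8.58% in WT 2 and 0.00561% in WT 3. They were thus high in libraries of both genotypes.

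**Figure D1:**
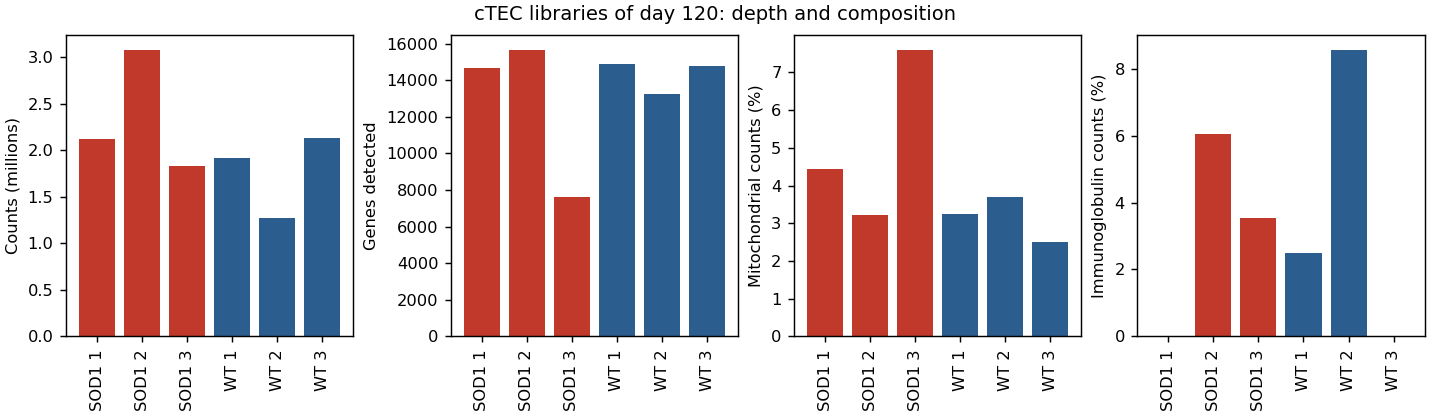
Depth and composition of the 6 cTEC libraries of day 120, 1 bar per library, SOD1 in red and WT in blue. Panels give total counts (in units of 1000000), genes detected and the percent of counts on mitochondrial and immunoglobulin genes. SOD1 3 had 7627 genes detected and the highest mitochondrial share, 7.60%.

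Sod1, superoxide dismutase 1, is the mouse gene on which transgene reads can fall, and it was read first to check the labels. The gene lies on chromosome 16 (90220754 to 90226329, plus strand, mm10). Its levels were 474, 349 and 666 CPM in the SOD1 libraries and 97.2, 102 and 50.5 CPM in the WT libraries. All 3 SOD1 libraries exceeded all 3 WT libraries, as the labels would have it, and the means were 496 ± 159.5 in SOD1 and 83.1 ± 28.3 CPM in WT (SD, n = 3 each). The log2 fold change of 2.58 ± 0.48 (SE) nevertheless did not pass edgeR's quasi-likelihood test (Benjamini-Hochberg adjusted p = 0.41). Without SOD1 3 it was 2.32 with an adjusted p of 0.078. DESeq2 gave an adjusted p of 0.00173.

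Gm8566, a processed pseudogene of Sod1 on chromosome 6 (67205619 to 67206083, plus strand, mm10), was higher in SOD1 cTEC and was the one gene that passed the test. It had 114, 80.4 and 119 CPM in SOD1 libraries, and 0.575, 0 and 0 CPM in WT libraries, where the 3 libraries held 1 count in all. The pooled ratio of SOD1 to WT was 515, with a 95% exact counting interval of 92.2 to 20392, and the adjusted p was 0.0142 (edgeR). The call was lost without SOD1 1 (edgeR adjusted p = 0.0645), WT 1 (0.0899), WT 2 (0.216) or WT 3 (0.112). It was also lost by voom with quality weights (adjusted p = 0.339), with the day 120 libraries alone (0.978) and with the replicate number as a block (0.0913). Its 465 bases align with the 465 coding bases of Sod1 without a gap and differ from them at 10, an identity of 97.85%. The longest stretch without a difference runs over 122 bases. Reads of the human transgene, of Sod1 and of Gm8566 cannot be told apart in these counts, so each of the levels is one of assigned reads. In cTEC of day 30 Gm8566 stood at 206, 131 and 211 CPM in SOD1 and at 0.215 and 0.345 CPM in WT libraries. In mTEC of day 120 it stood at 109, 128 and 43.1 CPM in SOD1 and at 0.0664, 0 and 0.205 CPM in WT libraries. Neither difference of differences passed the test (edgeR adjusted p = 0.9999 against day 30 and 1 against mTEC).

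**Figure D2:**
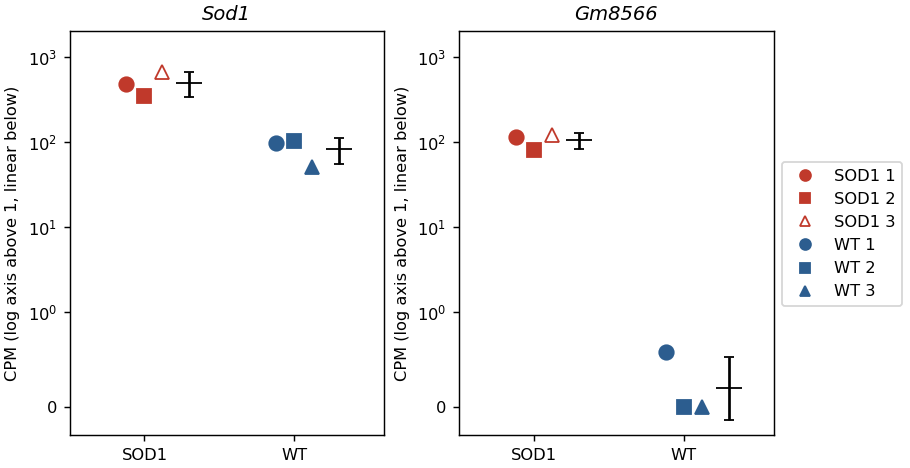
Sod1 and Gm8566 in CPM in the 6 cTEC libraries of day 120, on an axis that is logarithmic above 1 and linear below. Each point is a library (SOD1 3 open) and the black bars are the mean and SD over 3 libraries. Both genes separate the genotypes, and Gm8566 held 1 count over the WT libraries.

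The label cTEC was checked next. All 16 cTEC markers had counts in every library except SOD1 3, where 14 did, and their summed level was 18798 to 34619 CPM in SOD1 and 24609 to 31314 CPM in WT libraries. Psmb11 stood at 272, 221 and 11.2 CPM in SOD1 libraries and at 190.3, 331 and 218 CPM in WT libraries, so SOD1 3 had a small part of the level of the other 5. Prss16, the thymus-specific serine protease, stood at 3081, 2893 and 1746 CPM in SOD1 and at 1638, 4546 and 2166 CPM in WT libraries, where the genotypes overlap. Foxn1 had 66.5, 112 and 55.5 CPM in SOD1 and 62.1, 132 and 102 CPM in WT libraries. Ctsl had 6817, 5402 and 5792 CPM in SOD1 and 5399, 7248 and 5072 CPM in WT libraries, and both genes overlapped between the genotypes as well. Dll4 had 24.4, 30.5 and 0 CPM in SOD1 and 12.1, 52.5 and 17.3 CPM in WT libraries, and Ccl25 had 2984, 2561 and 1367 CPM in SOD1 and 2055, 3449.8 and 2202 CPM in WT libraries. Ly75, the endocytic receptor DEC-205 that marks cTEC, was the one cTEC marker of the 16 whose genotypes did not overlap, with 155, 159.7 and 0 CPM in SOD1 and 189, 207 and 306 CPM in WT libraries (log2 fold change -1.15 ± 1.05, edgeR adjusted p = 0.869; -0.56 without SOD1 3). Among all genes tested, 5.67% had every SOD1 library below every WT library and 2.24% had every one above. A count of 0 in a library allows up to 3 counts, which came to 0.973 to 2.36 CPM of total counts over the 6 libraries, for counting error alone. None of these 7 cTEC genes passed the test by edgeR or DESeq2 (edgeR adjusted p = 0.869 to 1), and the median log2 fold change of the 16 was -0.15 (0.08 without SOD1 3).

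Markers of other cells were read next. The mTEC list summed to 6714 to 8193 CPM in SOD1 and 1964 to 7119 CPM in WT libraries, with Aire, the regulator of tissue antigens in mTEC, at 0 in 4 of the 6 libraries and at 5.61 CPM in SOD1 2 and 19.5 CPM in WT 2. Thymocyte and T cell markers summed to 251 to 760.1 CPM in SOD1 and 495 to 551 CPM in WT libraries, B cell markers to 4.50 to 73.7 CPM in SOD1 and 0 to 40.6 CPM in WT libraries, and myeloid and dendritic cell markers to 256 to 616 CPM in SOD1 and 371 to 587 CPM in WT libraries. Fibroblast markers summed to 198 to 429 CPM in SOD1 and 201 to 554 CPM in WT libraries, and endothelial markers to 0 to 19.8 CPM in SOD1 and 3.45 to 21.2 CPM in WT libraries. Erythroid and platelet markers summed to 1.05 to 124 CPM in SOD1 and 1.33 to 8.63 CPM in WT libraries, and adipocyte markers to 0 to 15.1 CPM in SOD1 and 15.5 to 113 CPM in WT libraries. Adipocyte markers were the one list whose summed levels did not overlap between the genotypes, with 1 of the 7 members tested. The gap was narrow, from 15.1 CPM in SOD1 1 to 15.5 CPM in WT 1. In WT 1 the untested member Adipoq made up 14.4 CPM, and it was at 0 in the other 5 libraries. Of the defining genes of these lists, the endothelial receptor Kdr was at 0 in all 6 libraries, the fibroblast collagens Col1a1 and Col1a2 were at 0 in 4 and 5, and the leukocyte antigen Ptprc ran from 9.75 to 83.2 CPM in SOD1 and from 29.3 to 78.4 CPM in WT libraries. In bulk libraries, fewer cells of a type and less RNA per cell cannot be told apart.

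**Figure D3:**
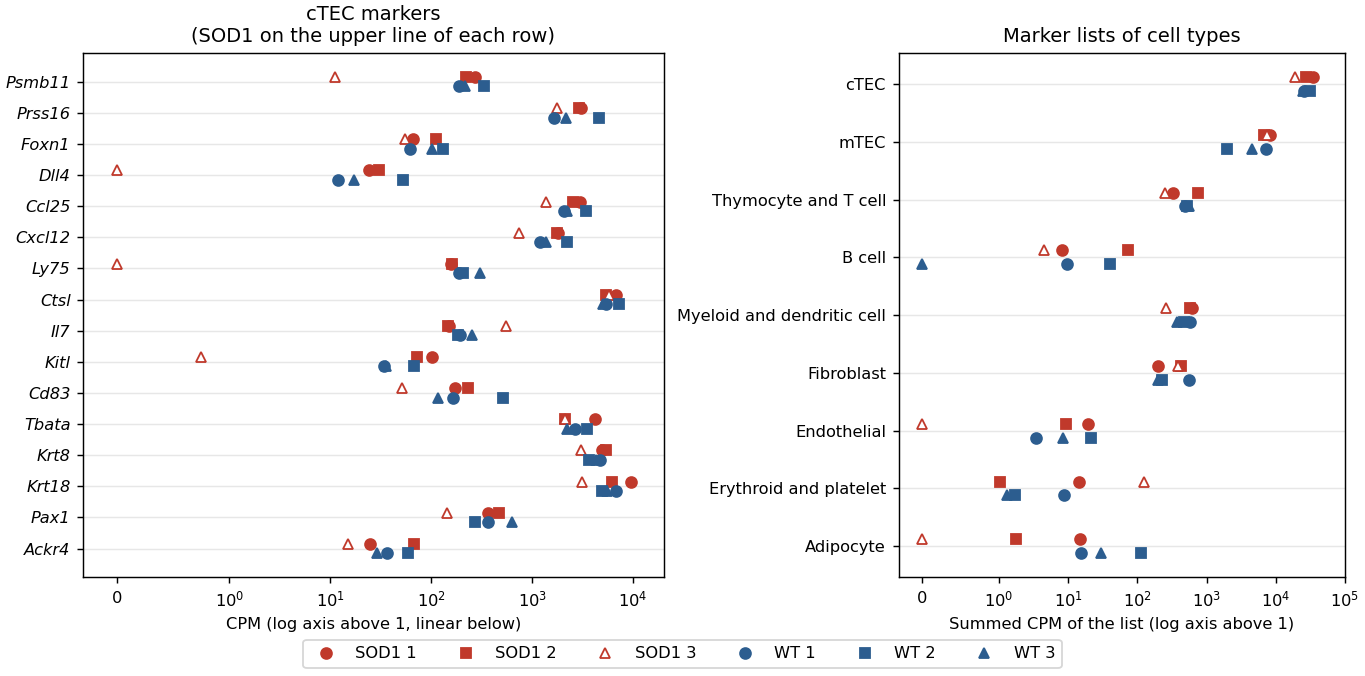
Levels of the 16 cTEC markers in CPM (left) and summed levels of 9 lists of cell type markers (right) in the 6 cTEC libraries of day 120, on axes that are logarithmic above 1 and linear below. Each point is a library, SOD1 on the upper line of a row in red and WT on the lower line in blue. SOD1 3 (open triangle) lies at 0 for Dll4 and Ly75 and at 11.2 CPM for Psmb11.

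Across the 14620 genes tested, Gm8566 alone passed (1 gene higher and 0 lower in SOD1, 0.00684% of those tested). At an unadjusted p under 0.05 stood 738 genes with a higher level in SOD1 (5.05%) and 589 with a lower one (4.03%), 9.08% together. DESeq2 called 107 higher (0.732%) and 101 lower (0.691%), 1.42% together. Of the 208 DESeq2 calls, 141 had a count of 0 in 2 or 3 libraries of a genotype. The median log2 fold change of all tested genes was -0.22 with SOD1 3 and 0.00 without it, and fold changes are to be read against that shift. The 3 SOD1 libraries all lay above the 3 WT libraries in 327 genes (2.24%) and all below in 829 (5.67%). Without SOD1 3 these numbers were 1485 (10.2%) above and 1057 (7.23%) below. The fit shares 1 estimate of the spread with the libraries of day 30, which correlated at 0.873 to 0.951 among themselves (10 pairs). With the 6 libraries of day 120 alone, 0 of 10656 genes passed the edgeR test and 196 (1.84%) had an unadjusted p under 0.05. Without SOD1 3, 2 of 15077 genes passed (0.0133%). They were Gm8566 (adjusted p = 0.00153) and Diaph2, a formin of the actin skeleton on the X chromosome, which was lower. Diaph2 was at 0 in SOD1 1 and SOD1 2 and at 7.5 CPM in the left-out SOD1 3, and at 44.3, 92.3 and 39.0 CPM in WT libraries (edgeR adjusted p = 0.0284).

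The genes with the smallest unadjusted p, a mean of at least 10 CPM and no overlap between genotypes are given as values, since none of those named next passed the edgeR test (adjusted p = 0.208 to 0.485). By that rule they separate the genotypes. Among 12 with higher levels in SOD1 libraries, Sod1 included, 2 were mitochondrial ribosomal RNAs. The small one, mt-Rnr1, stood at 3217, 1475 and 2339 CPM in SOD1 and 460.0, 430.2 and 263 CPM in WT libraries (log2 fold change 2.61 ± 0.42, 2.62 without SOD1 3), so that the lowest SOD1 library had over 3 times the highest WT level. The large one, mt-Rnr2, stood at 15351, 9603 and 27756 CPM in SOD1 and 7609.7, 7182 and 3894 CPM in WT libraries (log2 fold change 1.5 ± 0.37, 1.01 without SOD1 3), with SOD1 3 the highest. The share of mitochondrial counts, which includes these 2 RNAs, was highest in SOD1 3 and SOD1 1. The 13 mitochondrially encoded transcripts read below, without these 2, overlapped between the genotypes. They summed to 30559, 23783 and 74535 CPM in SOD1 and to 27558.5, 32071 and 19451 CPM in WT libraries. The part of the mitochondrial share in the levels of the 2 RNAs was not tested.

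Ltf, which encodes the iron-binding protein lactoferrin, had 88.4, 83.9 and 148 CPM in SOD1 libraries and 1.73, 0 and 0 CPM in WT libraries, where it held 3 counts in all, a pooled ratio of 171 with a 95% exact counting interval of 58.3 to 833. Lcn2, which encodes the siderophore-binding lipocalin 2, had 346, 363 and 692 CPM in SOD1 and 117, 142 and 71.3 CPM in WT libraries (log2 fold change 2.08 ± 0.53, edgeR adjusted p = 0.485; 1.70 without SOD1 3). These levels were not carried by a single library: SOD1 1 and SOD1 2 alone stood at more than 2 times the highest WT level of Lcn2. Samd9l, an interferon-induced antiviral and growth-restraining gene, had 225, 284 and 1163 CPM in SOD1 and 40.8, 66 and 70.9 CPM in WT libraries (log2 fold change 3.23 ± 0.67, 2.11 without SOD1 3).

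For the other 6 of these genes SOD1 3 stood far above the rest. The planar polarity gene Vangl2 had 18.7, 14.7 and 113 CPM in SOD1 and 0, 0.847 and 0 CPM in WT libraries. Grb7, an adaptor of receptor tyrosine kinases, had 45.2, 45.3 and 305 CPM in SOD1 and 0, 1.69 and 7.98 CPM in WT libraries. Nfya, a subunit of the CCAAT-binding factor NF-Y, had 13.5, 3.51 and 279.7 CPM in SOD1 and 0.575, 0.847 and 0.443 CPM in WT libraries, so that SOD1 2 was close to the WT level. Etfbkmt, a mitochondrial lysine methyltransferase, had 10.4, 11.6 and 271 CPM in SOD1 and 0, 1.69 and 0.443 CPM in WT libraries. The proprotein convertase Pcsk5, with 10.9, 10.9 and 77.2 CPM, and the purine synthesis gene Adssl1, with 10.4, 5.26 and 99 CPM, were at 0 in the 3 WT libraries. Against a floor of 3 counts over the WT group these levels were at least 43.8-fold higher for Pcsk5 and at least 47.2-fold higher for Adssl1. Without SOD1 3 the bounds were 18.8 for Pcsk5 and 12.7 for Adssl1.

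Krtdap, a differentiation protein of stratified epithelium, led the genes with lower levels in SOD1 libraries, with 1.56, 5.61 and 0 CPM in SOD1 and 382, 15.2 and 349.6 CPM in WT libraries (log2 fold change -6.59 ± 1.32, edgeR adjusted p = 0.476). WT 2 was far below the other WT libraries. Zfp236, a zinc finger gene, had 2.08, 1.05 and 0.75 CPM in SOD1 and 12.7, 39.8 and 71.8 CPM in WT libraries. Polrmt, the RNA polymerase of mitochondria, had 0.52, 0 and 0 CPM in SOD1 libraries, 1 count in all, and 25.3, 41.5 and 3.1 CPM in WT libraries. Xxylt1, a xylosyltransferase that extends sugars on Notch receptors, likewise held 1 count over the SOD1 libraries, with 0, 0.351 and 0 CPM, and had 1.73, 42.3 and 41.2 CPM in WT libraries. In Gys1, the glycogen synthase of muscle and most tissues, the levels of 8.84, 9.48 and 5.25 CPM in SOD1 libraries stood against 20.1, 301 and 28.4 CPM in WT libraries, so the WT mean rests on WT 2.

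Phldb2, which anchors microtubules at the cell cortex, had 0, 4.91 and 0 CPM in SOD1 and 35.1, 57.6 and 53.2 CPM in WT libraries. Myof, a membrane repair protein of the ferlin family, had 19.2, 4.56 and 3.0 CPM in SOD1 and 27, 113 and 84.2 CPM in WT libraries. Tdrd3, a Tudor domain protein that partners a topoisomerase, had 2.08, 3.51 and 0.75 CPM in SOD1 and 29.9, 15.2 and 37.2 CPM in WT libraries. The centrosome and cilium gene Cep41 had 1.04, 2.11 and 0.75 CPM in SOD1 and 16.1, 32.2 and 18.6 CPM in WT libraries, and Golt1b, a Golgi transport gene, had 8.84, 8.42 and 2.25 CPM in SOD1 and 37.4, 22.9 and 93.5 CPM in WT libraries. Zfp715, another zinc finger gene, had 0, 1.4 and 0 CPM in SOD1 and 17.8, 31.3 and 18.6 CPM in WT libraries, and Nckap5l, a microtubule-associated gene, had 0.52, 1.4 and 0 CPM in SOD1 and 23, 53.3 and 8.86 CPM in WT libraries. Without SOD1 3 all 12 kept a negative log2 fold change (-7.00 to -2.57) and the 11 higher genes other than Sod1 a positive one (1.01 to 9.29, fitted values that depend on the counts near 0), with edgeR adjusted p of 0.0780 to 0.386. The rule had asked for separate genotypes, so leaving out a library could hardly turn these directions. On the same counts from which the genes were picked, DESeq2 called 12 of the 12 lower ones. It also called 8 of the 9 higher ones to which it gave an adjusted p, Sod1 aside. It gave none to Etfbkmt and Grb7, for a reason that was not tested. SOD1 3 was the highest library in both, and also in Nfya and Adssl1, which DESeq2 called.

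**Figure D4:**
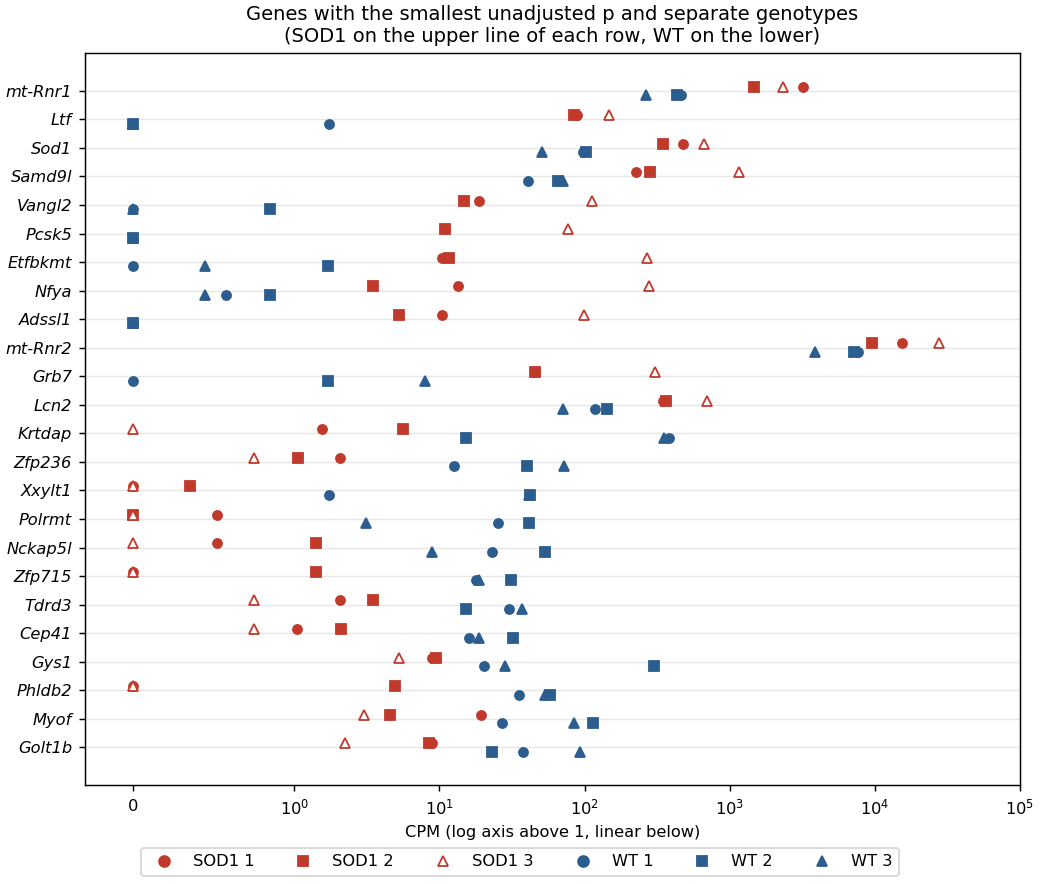
Levels in CPM of the 24 genes with the smallest unadjusted p among those with separate genotypes and a mean of at least 10 CPM, on an axis that is logarithmic above 1 and linear below. Each point is a library, SOD1 on the upper line of a row in red and WT on the lower line in blue. The upper 12 genes have higher and the lower 12 genes lower levels in SOD1, and SOD1 3 (open triangle) is the highest SOD1 library in all of the upper 12 except mt-Rnr1.

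Lists of genes with known roles in thymic epithelium, stress and ALS were then read. They held 646 different tested genes, of which 0 passed the edgeR test, 43 had an unadjusted p under 0.05 (6.66%, against 9.08% of all genes tested) and 7 were called by DESeq2 (1.08%, against 1.42%). The 7 were Cldn3, Lcn2, Csf2, Hsd17b7, the thymocyte marker Rag2, the myeloid marker Itgam and the fibroblast marker Col3a1. The SOD1 libraries all lay above the WT libraries in 23 of the 646 and all below in 21, where 2.24% and 5.67% of all genes tested did so. In the paragraphs that follow, no member passed the edgeR test, and medians are log2 fold changes beside the -0.22 of all genes (0.00 without SOD1 3). Without SOD1 3 the fit tested 20 thymocyte-supporting ligands, 31 oxidative stress defence genes, 20 apoptosis and survival genes and 13 keratins. It tested 8 fibroblast markers and 3 erythroid and platelet markers. Other lists kept the number given.

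Thymocyte-supporting ligands had a median of -0.15 over 19 members tested (0.10 without SOD1 3), with 2 above and 0 below. Ccl21a, a chemokine that draws thymocytes to the medulla and is also on the mTEC list, had 5304, 3464 and 3993 CPM in SOD1 and 2858, 890.0 and 954 CPM in WT libraries (log2 fold change 1.44 ± 0.49, 1.5 without SOD1 3, edgeR adjusted p = 0.485). It has near-identical copies in the genome, so its count is uncertain. Ccl19, which shares its receptor, had 201, 43.5 and 951 CPM in SOD1 and 87.4, 62.7 and 24.8 CPM in WT libraries, where SOD1 2 lay below WT 1. The Notch ligand Dll1 had 69.1, 96.9 and 848 CPM in SOD1 and 94.3, 58.4 and 75.8 CPM in WT libraries, so the high value is that of SOD1 3. The mTEC markers had a median of 0.20 over 15 (0.61 without SOD1 3), with 2 above and 0 below. Their tight junction gene Cldn3 had 269, 204 and 137 CPM in SOD1 and 67.9, 33 and 36.3 CPM in WT libraries (log2 fold change 2.15 ± 0.69, 2.38 without SOD1 3, edgeR adjusted p = 0.485), and DESeq2 called it. Without Ccl21a and Cldn3 the mTEC list summed to 2619.9 CPM in SOD1 1, 3046 CPM in SOD1 2 and 3332 CPM in SOD1 3, and to 4193 CPM in WT 1, 1041 CPM in WT 2 and 3550 CPM in WT 3. Those were the 2 members above, and the sum of the whole list overlapped between genotypes as well. The overlap of the rest therefore decides nothing.

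TEC transcription factors had a median of -0.34 over 14 (-0.13 without SOD1 3), with 1 above and 0 below. The factor above was Pax9, needed for the thymus to form from the pharyngeal pouch, with 206, 186 and 364 CPM in SOD1 and 125, 103 and 125 CPM in WT libraries (log2 fold change 1.10 ± 0.55). Tbx1, another pouch factor, had 20.8, 4.21 and 0 CPM in SOD1 libraries and was at 0 in the 3 WT libraries. Growth factor receptors and signals had a median of 0.15 over 18 (0.13 without SOD1 3), with 1 above and 0 below. It was Met, the receptor of hepatocyte growth factor, with 55.1, 39.7 and 515 CPM in SOD1 and 33.4, 0.847 and 23 CPM in WT libraries, where SOD1 3 was far above the rest.

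Antigen presentation by MHC class I, with the thymoproteasome, had a median of 0.11 over 22 members (0.21 without SOD1 3), with 1 above and 1 below. The member above was Psmb8, the immunoproteasome subunit whose place Psmb11 takes in the thymoproteasome, with 364, 287 and 332 CPM in SOD1 and 235, 120.2 and 82 CPM in WT libraries (log2 fold change 1.17 ± 0.54, 1.17 without SOD1 3, edgeR adjusted p = 0.54). B2m, the light chain of MHC class I, had 10961, 7640.1 and 16939 CPM in SOD1 and 9688, 5521 and 4883 CPM in WT libraries, and Tap1, which pumps peptides into the endoplasmic reticulum, had 329, 436 and 739 CPM in SOD1 and 340.4, 284 and 322 CPM in WT libraries. Both overlapped between genotypes. The median of MHC class II presentation was 0.07 over 17 (0.17 without SOD1 3), with 0 above and 0 below. H2-DMb2, a chain of the editor of class II peptides, had 437, 475 and 1138 CPM in SOD1 and 518, 312 and 395 CPM in WT libraries.

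Protein breakdown was read from 3 lists. Autophagy genes, by which cTEC feed their own proteins into class II presentation, had a median of -0.30 over 24 (-0.03 without SOD1 3), with 0 above and 3 below. Optn, an autophagy receptor that is also on the ALS-linked list, had 2.6, 22.8 and 0 CPM in SOD1 and 38, 65.2 and 51 CPM in WT libraries (log2 fold change -2.56 ± 1.22, -1.99 without SOD1 3, edgeR adjusted p = 0.556). Atg10, which helps to conjugate Atg12 to Atg5, had 6.24, 23.2 and 0 CPM in SOD1 and 52.9, 33.9 and 27.5 CPM in WT libraries. Lysosomal genes had a median of 0.05 over 26 (0.22 without SOD1 3), with 0 above and 0 below, and the cholesterol carrier Npc2 had 556, 349 and 1194 CPM in SOD1 and 542, 253 and 424 CPM in WT libraries. Proteasome 26S subunits had a median of -0.12 over 29 (0.05 without SOD1 3), with 0 above and 3 below. The lid subunit Psmd12 was among these 3, with 127, 158 and 121 CPM in SOD1 and 213, 318 and 233 CPM in WT libraries (log2 fold change -0.91 ± 0.46), while Nfe2l1, the factor that induces proteasome genes, had 283, 199 and 1229 CPM in SOD1 and 185, 104 and 224 CPM in WT libraries.

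Heat shock chaperones had 4 members above and 0 below among 25, with a median of 0.07 (0.30 without SOD1 3). Dnajb1, a co-chaperone of Hsp70, had 4908, 3357 and 2169 CPM in SOD1 and 1889.6, 1817 and 1663 CPM in WT libraries (log2 fold change 0.96 ± 0.34, 1.22 without SOD1 3, edgeR adjusted p = 0.485). Hspb1, the small chaperone Hsp25 of mice, had 3510.5, 1930.1 and 4109 CPM in SOD1 and 1921, 1191 and 1002 CPM in WT libraries (log2 fold change 1.21 ± 0.43). SOD1 2 was close to WT 1 in that gene. Hsp90ab1 had 3249, 2593 and 5149 CPM in SOD1 and 2108, 2282 and 2097 CPM in WT libraries, whereas its inducible relative Hsp90aa1 overlapped, with 3439.8, 1747 and 9517 CPM in SOD1 and 1438, 3026 and 1463 CPM in WT libraries. Genes of the unfolded protein and integrated stress responses had a median of 0.10 over 28 (0.23 without SOD1 3), with 0 above and 0 below, and the endoplasmic reticulum sensor Ern1 had 0, 3.86 and 0 CPM in SOD1 and 3.45, 16.1 and 7.53 CPM in WT libraries. Oxidative stress defence is the group to which Sod1 belongs by function, but its list leaves out Sod1. It had a median of -0.24 over 30 (0.08 without SOD1 3), with 1 above and 1 below. Cat, the catalase that clears hydrogen peroxide, had 35.4, 73 and 331 CPM in SOD1 and 39.1, 43.2 and 59.4 CPM in WT libraries, so the high value is that of SOD1 3.

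Immediate early genes, which respond within minutes to signals and also to tissue digestion, had a median of 0.25 over 24 (0.32 without SOD1 3), with 4 above and 1 below. Fos had 9258, 7062 and 8524 CPM in SOD1 and 4686, 5961 and 6748 CPM in WT libraries (log2 fold change 0.51 ± 0.26, 0.50 without SOD1 3, edgeR adjusted p = 0.579). Ier5 had 440.4, 308 and 713 CPM in SOD1 and 254, 289 and 135 CPM in WT libraries. Dusp1, a phosphatase of MAP kinases that glucocorticoids induce too, had 2425, 1385 and 1734 CPM in SOD1 and 1036, 1290.5 and 1187 CPM in WT libraries (log2 fold change 0.66 ± 0.35). It was the 1 member above among 13 glucocorticoid-induced genes, whose median was 0.53 (0.16 without SOD1 3), with 0 below. The type I interferon response had a median of 0.34 over 21 (0.25 without SOD1 3), with 3 above and 0 below. Ifi27l2a had 1012, 614 and 1947 CPM in SOD1 and 587, 309 and 453 CPM in WT libraries (log2 fold change 1.40 ± 0.49, 0.86 without SOD1 3, edgeR adjusted p = 0.485), and Bst2, which tethers virus particles to the cell, had 145, 136 and 76.5 CPM in SOD1 and 76.5, 40.6 and 48.3 CPM in WT libraries, with SOD1 3 level with WT 1. NF-kappaB and inflammatory genes had a median of 0.03 over 25 (0.00 without SOD1 3), with 2 above and 1 below. Those above were Lcn2 and Csf2, the growth factor GM-CSF, and DESeq2 called both. Csf2 had 44.2, 24.2 and 0.75 CPM in SOD1 libraries and was at 0 in the 3 WT libraries.

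Mitochondrially encoded transcripts had a median of 0.67 over 13 (-0.07 without SOD1 3), with 0 above and 0 below. mt-Co3, a subunit of cytochrome oxidase, had 4194, 3030.3 and 7739 CPM in SOD1 and 3096, 2526 and 1924 CPM in WT libraries, and mt-Atp6, a subunit of ATP synthase, had 7237, 5209.9 and 20777 CPM in SOD1 and 6205, 6962 and 4756 CPM in WT libraries. SOD1 3 was the highest library in both. Nuclear oxidative phosphorylation genes had a median of -0.17 over 31 (0.10 without SOD1 3), with 1 above and 0 below. Cytoplasmic ribosomal proteins had a median of 0.14 over 35 (-0.08 without SOD1 3), with 0 above and 0 below, and Rpl8 had 243, 156 and 539 CPM in SOD1 and 231, 106 and 138 CPM in WT libraries. The medians of these 3 lists changed sign without SOD1 3, as did those of 5 others of the 27 lists (thymocyte-supporting ligands, proteasome, oxidative stress defence, apoptosis and survival, and glycolysis).

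Genes of S phase had a median of -0.55 over 21 (-0.19 without SOD1 3), with 0 above and 2 below. Slbp, which binds histone messenger RNA, had 88.9, 147 and 5.25 CPM in SOD1 and 184, 265 and 152 CPM in WT libraries. Genes of G2/M phase had a median of 0.23 over 22 (0.82 without SOD1 3), with 0 above and 0 below. Top2a, the topoisomerase of dividing cells, had 38.5, 42.8 and 0 CPM in SOD1 and 6.9, 0 and 0 CPM in WT libraries, and Ube2c, a ubiquitin-conjugating enzyme of mitosis, had 11.4, 16.1 and 0 CPM in SOD1 and 0.575, 0 and 1.77 CPM in WT libraries. Both were above every WT library in SOD1 1 and SOD1 2 and at 0 in SOD1 3. Cell cycle inhibitors and p53 targets had a median of 0.04 over 18 (0.16 without SOD1 3), with 0 above and 1 below, which was Mdm2, the ligase that degrades p53, with 118, 128 and 6.75 CPM in SOD1 and 265, 274 and 237 CPM in WT libraries (log2 fold change -1.62 ± 0.77, -1.07 without SOD1 3). Apoptosis and survival genes had a median of -0.27 over 19 (0.12 without SOD1 3), with 0 above and 1 below, and Apaf1, the scaffold that activates caspases, had 62.9, 20.4 and 3.0 CPM in SOD1 and 6.33, 7.62 and 11.1 CPM in WT libraries.

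Matrix and adhesion genes of epithelium had a median of -0.27 over 24 (-0.01 without SOD1 3), with 1 above and 2 below. Those below were the paired chains of basement membrane collagen IV, which are neighbours on chromosome 8 and share a promoter region. Col4a1 had 70.2, 97.9 and 59.2 CPM in SOD1 and 149, 143 and 377 CPM in WT libraries (log2 fold change -1.56 ± 0.58, -1.40 without SOD1 3, edgeR adjusted p = 0.489). Col4a2 had 36.9, 45.6 and 0.75 CPM in SOD1 and 65.6, 78.8 and 192 CPM in WT libraries (log2 fold change -2.01 ± 0.98, -1.44 without SOD1 3, edgeR adjusted p = 0.571). WT 3 was the highest library in both. Among fibroblast markers, with a median of -2.02 over 6 (-1.32 without SOD1 3) and 1 below, the matrix glycoprotein Fbln1 had 4.68, 2.11 and 3.0 CPM in SOD1 and 23, 12.7 and 12 CPM in WT libraries, and collagen III, Col3a1, had 0, 1.4 and 0 CPM in SOD1 and 18.4, 0.847 and 48.7 CPM in WT libraries. The part of fibroblast RNA in the collagen values was not tested. Keratins had a median of -0.33 over 12 (-0.05 without SOD1 3), with 0 above and 0 below.

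Cholesterol synthesis had a median of 0.11 over 20 (0.32 without SOD1 3), with 1 above and 2 below. Hsd17b7, an enzyme of the pathway, was higher than the WT libraries in SOD1 1 and SOD1 2 and at 0 in SOD1 3, with 36.9, 18.6 and 0 CPM in SOD1 and 1.15, 0 and 1.33 CPM in WT libraries, and DESeq2 called it. Glycolysis genes had a median of -0.08 over 19 (0.06 without SOD1 3), with 0 above and 0 below, and Aldoc, an aldolase, had 71.7, 29.8 and 183 CPM in SOD1 and 23.6, 36.4 and 16.4 CPM in WT libraries.

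Genes linked to ALS in patients, in a list that leaves out Sod1, had a median of -0.42 over 20 (-0.04 without SOD1 3), with 0 above and 2 below. Optn, given above, was among those below. It was at 0 in SOD1 3, as were most tested genes in that library, and lay below every WT library in SOD1 1 and SOD1 2.

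The remaining cell type lists rest on few counts. Thymocyte and T cell markers had a median of -0.60 over 22 (-0.27 without SOD1 3), with 0 above and 0 below and 8 at a positive log2 fold change. Tcf7, a T lineage factor, ran against the median of its list, with 58.8, 144 and 170.2 CPM in SOD1 and 61, 36.4 and 33.7 CPM in WT libraries. B cell markers had a fitted median of 1.91 over 4 (-0.01 with the member at 0 in a genotype set at a floor of 3 counts, and 0.20 without SOD1 3), and Cd79b, a chain of the B cell receptor, had 8.32, 39.7 and 0 CPM in SOD1 and 2.88, 0 and 0 CPM in WT libraries. Myeloid and dendritic cell markers had a fitted median of 2.80 over 13 (1.35 at the floor, and 3.31 without SOD1 3), and the integrin Itgam had 16.6, 6.67 and 0 CPM in SOD1 libraries and was at 0 in the 3 WT libraries. Erythroid and platelet markers had a fitted median of 5.69 over 4 (2.12 at the floor). Without SOD1 3 it was -5.51 over 3, a fitted value that depends on the counts near 0 and covers a different set of members. Endothelial markers had a median of -0.09 over 4 (0.19 without SOD1 3), and the lipid carrier Fabp4, the 1 adipocyte marker tested, had 14.6, 1.75 and 0 CPM in SOD1 and 1.15, 113 and 30.1 CPM in WT libraries.

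**Figure D5:**
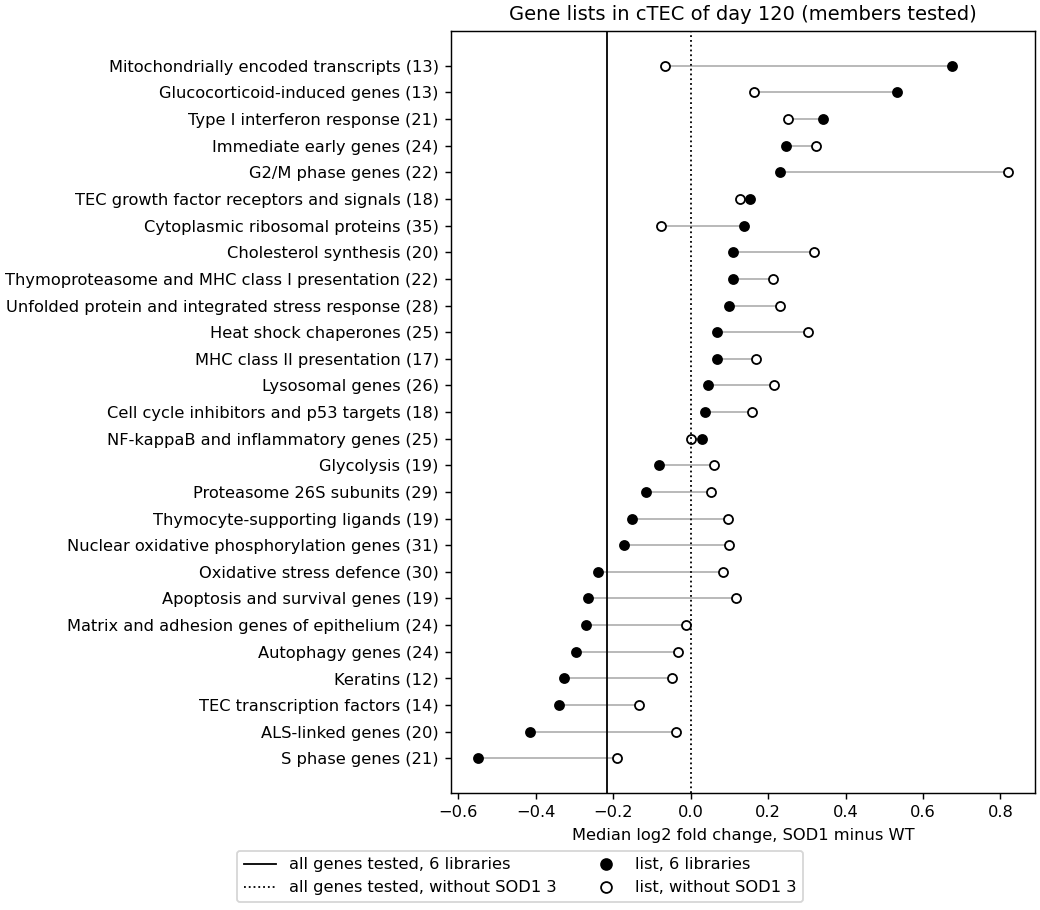
Median log2 fold change (SOD1 minus WT) of 27 gene lists in cTEC of day 120 with all 6 libraries (filled) and without SOD1 3 (open), with the number of members tested with all 6 libraries in brackets. Vertical lines give the median of all genes tested, -0.22 with all libraries (solid) and 0.00 without SOD1 3 (dotted). The mitochondrially encoded transcripts and the G2/M genes moved the most between the settings.

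The genotype difference of day 120 was finally set beside those of cTEC at day 30 and of mTEC at day 120. The test of the difference passed for 0 of 14620 genes against day 30 (edgeR, with 550 genes, 3.76%, at an unadjusted p under 0.05 and 25 called by DESeq2) and for 0 of 15114 against mTEC (478 genes, 3.16%, and 29 by DESeq2). The labels give cTEC and mTEC libraries of day 120 the same library numbers without saying what these mean, and this fit did not pair them. With the library number as a block, 0 genes passed the edgeR test against mTEC and 163 had an unadjusted p under 0.05. At an unadjusted p under 0.05 stood 47 genes (0.321%) in cTEC of day 30 and 138 (0.913%) in mTEC of day 120, and in each set 1 gene passed, again Gm8566 (0.00684% of those tested at day 30 and 0.00662% in mTEC). These shares do not compare the size of the genotype difference between sets. Day 30 and day 120 cTEC share 1 estimate of the spread, and the sets differ in depth and number of libraries. The share in cTEC of day 120 was 9.08% in that fit and 1.84% with the day 120 libraries alone. Without SOD1 3, 0 genes passed in either test of the difference by edgeR. The 11 genes named above with higher levels, Sod1 aside, had log2 fold changes of -1.13 to 0.50 at day 30 (6 positive and 5 negative) and of -0.43 to 1.23 in mTEC (5 positive and 6 negative). For the 12 with lower levels these were -0.84 to 0.95 at day 30 (5 positive and 7 negative) and -2.71 to 0.58 in mTEC (4 positive and 8 negative). mt-Rnr1, for one, had log2 fold changes of 2.61 in cTEC of day 120, 0.02 in cTEC of day 30 and 0.03 in mTEC, with edgeR adjusted p for the differences of 0.9999 and 1. Sod1 had log2 fold changes of 2.58 in cTEC of day 120, 2.86 in cTEC of day 30 and 3.08 in mTEC.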

How the data were processed

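cTEC were sorted by FACS from digested, stained thymus, and libraries were made with a SMARTseq v4 kit for low input, per the labels' protocols. The authors deposited raw counts per gene, which were used as deposited. The build mm10 and the tool DESeq2 appear in the submitters' processing notes with no role. Aligner and counter: not given in the sources used here. Strand use is unstated too, so reads of overlapping or antisense genes cannot be told apart. Of 55487 gene IDs, 55094 matched GENCODE vM21 (mm10), used for symbols and positions. No sample column was left unmapped.

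Genes were tested with edgeR 4.0.16 (R 4.3.3): TMM scaling, filterByExpr by group, estimateDisp, glmQLFit with the legacy option and glmQLFTest over all 11 cTEC libraries in 4 groups, with a gene called where its Benjamini-Hochberg adjusted p was under 0.05. Differences of differences used the same fit (day 30) or the 12 epithelial libraries of day 120 (mTEC). CPM are counts per effective library size. SE is the log2 fold change divided by the square root of F. Intervals and floors of 3 counts cover counting error only. Genes were named by rule: Sod1, Gm8566 and 7 cTEC genes; up to 12 genes per direction by smallest unadjusted p with a mean of at least 10 CPM and separate genotypes, without predicted genes or receptor segments; up to 4 members of each list, by smallest p; and defining markers of other cells. Diaph2 was named after its value was seen. The comparison, members and lists were chosen with earlier results of these data known. Fits were also run on simulated counts with known changes. The simulation had no library like SOD1 3 and no spread that differs between days, so it does not test those cases.

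Alternatives were DESeq2 1.42.0, median-of-ratios scaling, no filter on low counts, limma 3.58.1 voom with quality weights, a shared dispersion, the 6 libraries of day 120 alone, the replicate number as a block, the set of library numbers as a covariate, and each library left out. The comparison with mTEC was also run with the library number as a block. Added after seeing the data were DESeq2 and the day 120 fit without SOD1 3, and that omission with an unchanged gene filter. Python 3.11.15, pandas 2.3.3, Biopython 1.88 and matplotlib 3.10.9 made tables, the alignment and plots. Some members and a sequence are not reported here.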

Additional observations from a re-analysis of the deposited data

Results flagged for a closer look

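In 6 named genes the libraries of the genotypes separated in opposite directions in cTEC of day 120 and in another set, 5 at day 30 and 1 in mTEC. Of the 51 named genes with separate genotypes in cTEC of day 120, 9.80% separated in the opposite direction at day 30 and 1.96% in mTEC, against 6.75% and 3.55% of all such genes tested. In the same direction 6 named genes separated at day 30 (Sod1, Gm8566, Nckap5l, Tdrd3, Cldn3 and Ccl21a; 11.8%, against 8.22% of all such genes) and 4 in mTEC (Sod1, Gm8566, Nckap5l and Hsp90ab1; 7.84%, against 5.28%). None of the differences in the 6 genes passed edgeR's test of the difference itself (adjusted p = 0.9999 against day 30 and 1 against mTEC). Lcn2, above in SOD1 cTEC of day 120, stood at 18.4, 14.3 and 14.8 CPM in SOD1 and at 29.7 and 39.7 CPM in WT cTEC of day 30 (log2 difference of differences 3.22, day 120 minus day 30). Met, also above at day 120, stood at 9.65, 9.33 and 9.59 CPM in SOD1 and at 11.8 and 13.9 CPM in WT cTEC of day 30 (3.83). Krtdap, below at day 120, stood at 18.1, 15.4 and 21.6 CPM in SOD1 and at 11 and 8.07 CPM in WT cTEC of day 30 (-7.54). Xxylt1, below at day 120 with 1 count over the SOD1 libraries, stood at 13.5, 25.0 and 24.5 CPM in SOD1 and at 9.26 and 12.4 CPM in WT cTEC of day 30 (-8.33, a fitted value that depends on the counts near 0). Golt1b, below at day 120, stood at 34.5, 38.1 and 54.3 CPM in SOD1 and at 32.1 and 21.9 CPM in WT cTEC of day 30 (-3.61). Fbln1, below in SOD1 cTEC of day 120, stood at 6.61, 8.41 and 16.4 CPM in SOD1 and at 5.24, 3.19 and 4.50 CPM in WT mTEC of day 120 (-3.53, cTEC minus mTEC).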

How the results depend on the processing

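The count of genes passing at day 120, 1 in the edgeR fit, was 208 by DESeq2, 106 without a filter on low counts, 0 by voom with quality weights, 0 with the day 120 libraries alone and 0 to 2 with each library left out. Without SOD1 3 it was 398 by DESeq2, 0 with day 120 alone and 2 with an unchanged filter; 160 genes were called by DESeq2 both ways (76.9% of the 208 and 40.2% of the 398). The test of the difference against day 30, 0 in the fit, gave 25 by DESeq2, 34 without a filter and 0 to 1 with a library left out (1 without WT 3 of day 120). Against mTEC it gave 29 by DESeq2, 31 without a filter, 0 with the library number as a block and 0 with any library left out. The adjusted p of Sod1, 0.410 in the fit, was 0.00173 by DESeq2, 0.0169 without a filter and 2.85e-06 by DESeq2 without SOD1 3, and 0.0780 to 0.586 with a library left out. That of Gm8566, 0.0142 in the fit, was 0.339 by voom, 0.978 with day 120 alone and 0.186 with day 120 alone without SOD1 3. With a library left out it ran from 0.00153 to 0.216, and it missed the threshold without SOD1 1 (0.0645), WT 1 (0.0899), WT 2 (0.216) and WT 3 (0.112). Its direction held in all settings run.

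With the replicate number as a block, 0 genes passed (662 at an unadjusted p under 0.05), Gm8566 had an adjusted p of 0.0913 and Sod1 one of 0.969. Deviations of libraries with the same replicate number correlated at 0.04, 0.00 and -0.05. These 3 values, 1 of them with SOD1 3, cannot show whether such samples share more than a number. For cTEC and mTEC libraries of day 120 with the same library number, the correlations ran from 0.02 to 0.07. With different library numbers, cTEC and mTEC libraries correlated at -0.07 to 0.06.

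Of 80 other named genes, 5 changed direction, in 10 of 944 values under alternatives, with no call either way. This tally and that of the lists leave out voom, the shared dispersion and the settings added after seeing the data. Psmb11 did so without SOD1 3, Dll4, Ccl25 and Prss16 without SOD1 3 and without WT 2, and Ctsl without SOD1 1, WT 1 and WT 3. With each library left out, adjusted p ran from 0.689 to 1 for Psmb11, 0.738 to 1 for Dll4, 0.801 to 1 for Ccl25, 0.889 to 0.994 for Prss16 and 0.924 to 1 for Ctsl; the cause was not tested. Another 31 genes passed under at least 1 alternative, 26 of them by DESeq2. Of 430 list medians under alternatives, 403 moved by less than 1 SD between libraries.

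Depth (1269529 to 3083181 counts per library) and genes at 0 limit these comparisons: 936 of the 1327 genes at an unadjusted p under 0.05 had a library at 0 (70.5%), as did 63.5% of all genes tested. A p that misses the threshold does not show that the genotypes are alike.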
